A study of Mus musculus with 13 samples.

Results

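The genes described here are 41 genes of the secretory pathway of the cell, chosen by name from 23211 gene IDs: those that carry new proteins into the endoplasmic reticulum (ER), fold them there and export them to the Golgi. All 41 were found by symbol, and all 41 passed the filter on low counts that left 13294 genes to test. They held between 0.423% and 1.10% of the counts of a library.

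The 13 bulk RNA-seq libraries were made from sorted mouse cells, taken from the tissue that formed next to an implant in the tibia. The labels name the sorted cells as lineage-negative and positive for LEPR, the leptin receptor, a surface marker of stromal cells of the marrow. There were 6 bone libraries, whose source is given as Pressfit, and 7 fibrous libraries, whose source is given as PMMA, so tissue and implant type cannot be told apart. The labels give no genotype, strain, sex, age or time after implantation, and do not say whether animals were pooled or separate. The p-values therefore rest on the variation among libraries, some of which may be technical.

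A bone library held 16162321 to 43217004 counts and a fibrous library 18056208 to 44302166. Library names fell into 2 series, L002 (4 bone and 5 fibrous) and XY9274 (2 bone and 2 fibrous). Levels are normalised CPM, that is, read counts scaled to a common library size. Lepr lay under 5 CPM in 5 libraries, bone 3, 4 and 5 and fibrous 1 and 5, against the label of the sort, and 3 of these (bone 3, bone 4 and fibrous 5) carry Lin in their name. The names of bone 2 and bone 4 share an identifier, and so do those of fibrous 2 and fibrous 5; the labels do not say if such a pair came from the same animal, and the pairs are counted here as separate libraries. Leaving out the Lin-named libraries keeps 1 of each pair. Haemoglobin genes held between 0.128% and 35.3% of the counts, highest in bone 4, and immunoglobulin genes held up to 3.00%, in bone 5.

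Proteins to be secreted are recognised by the signal recognition particle as they leave the ribosome and are threaded through the Sec61 channel, where signal peptidase removes their signal peptide. Chaperones, lectins and disulfide isomerases fold them, and vesicles coated with COPII carry them to the Golgi, from which KDEL receptors bring escaped chaperones back. Cells that secrete much collagen, such as osteoblasts and fibroblasts, depend on this route, and procollagen needs particular help to enter COPII carriers. The transcription factors Xbp1, Atf4, Creb3l1 and Creb3l2 adjust the pathway to the load of client protein.

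Known DNA elements of that regulation were looked for in the promoters of the members, from 250 bases before to 50 bases after each gene's start in RefSeq (GRCm38.p6), and are shown because the slopes on collagen expression are later compared by them. Of the 41 genes, 32 matched the promoter table. Lman1, Sec61a1, Ssr2, Srp68, Sec11c, Spcs3, Srp19, Creb3l1 and Kdelr2 had no entry. The ER stress element, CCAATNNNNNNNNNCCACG on either strand, was present in 0.119% of 32851 promoters and in those of 5 members, all of them chaperones, lectins or a disulfide isomerase. They are Hspa5, Hsp90b1 (with 2 copies), Calr, Canx and Pdia6. Each window below is written 5′ to 3′ along the strand of its gene, with the matching letters in capitals, and lies on the plus strand for Hspa5 (chr2:34772005-34772063) and Pdia6 (chr12:17266471-17266529). The others lie on the minus strand: Hsp90b1 at chr10:86705618-86705676 and chr10:86705513-86705571, Calr at chr8:84847055-84847113 and Canx at chr11:50325780-50325838.
Hspa5: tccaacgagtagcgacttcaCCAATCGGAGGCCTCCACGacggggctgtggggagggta
Hsp90b1, distal: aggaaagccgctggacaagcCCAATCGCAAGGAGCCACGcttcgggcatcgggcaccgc
Hsp90b1, proximal: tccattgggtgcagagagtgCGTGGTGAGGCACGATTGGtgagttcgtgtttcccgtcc
Calr: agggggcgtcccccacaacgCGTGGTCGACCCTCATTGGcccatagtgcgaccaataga
Canx: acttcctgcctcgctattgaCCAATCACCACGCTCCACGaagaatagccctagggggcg
Pdia6: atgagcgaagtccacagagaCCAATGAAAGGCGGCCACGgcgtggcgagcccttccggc

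The core TGACGTG of the unfolded protein response element, on either strand, was present in 2.01% of promoters and in those of 5 members. These were Hspa5, Mia3, Sec23a, Sec24d and Kdelr3, so 4 of the 5 act in export or retrieval. In Sec23a the match lay within the first bases of the transcript and is not printed. The windows of Hspa5 (chr2:34771913-34771959), Sec24d (chr3:123267450-123267495) and Kdelr3 (chr15:79516359-79516405) are on the plus strand and that of Mia3 (chr1:183369625-183369671) is on the minus strand. The ER stress element II and the amino acid response element TTGCATCA were in none of the 32 promoters and in 0.0365% and 0.895% of all promoters. A match describes letters and is not evidence of binding.
Hspa5: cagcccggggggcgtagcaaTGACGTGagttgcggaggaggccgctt
Mia3: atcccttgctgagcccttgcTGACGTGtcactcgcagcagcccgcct
Sec24d: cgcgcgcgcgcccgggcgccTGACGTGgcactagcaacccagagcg
Kdelr3: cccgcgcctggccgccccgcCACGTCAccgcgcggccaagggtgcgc

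Every member was expressed. On a scale of median CPM per kilobase of annotated exons, Hspa5, the main chaperone of the ER lumen (BiP), had the highest level at 282.9, followed by the lectin chaperone Calr at 189 and the disulfide isomerase Pdia3 at 162. Small subunits of the entry machinery came next, with Spcs1 of signal peptidase at 149.7, Ssr2 of the translocon-associated complex TRAP at 142 and the channel subunit Sec61b at 119. The lowest levels per kilobase were those of the transcription factor Creb3l2, at 2.18, Sec63, which recruits BiP to the channel, at 3.78 and Mia3, at 7.66. Mia3 encodes TANGO1, the receptor that loads procollagen into COPII carriers.

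The members varied less between libraries than all genes tested, which were not matched to them for expression level. The median SD of log2 CPM over the 13 libraries was 0.56 for the members and 1.05 for all genes tested. Median levels of the members ran from 15.9 to 1196 CPM, and the part of level in this difference was not tested. The highest library exceeded the lowest by less than 3-fold for 14 members and by 10-fold or more for 9. Srp19, a protein of the signal recognition particle, spanned 2.00-fold. The widest spans were those of Mia3, 337-fold from 0.201 CPM in bone 4, and Sec63, 59.6-fold from 1.10 CPM in bone 4. Creb3l1 spanned 28.8-fold, Sec24d 19.0-fold and Kdelr3 16.7-fold. The extremes gathered in few libraries, as the heat map of all 41 genes shows: bone 4 held the lowest value of 10 members and the highest of 6, and bone 5 held the highest of 8 and the lowest of 6.

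**Figure D1:**
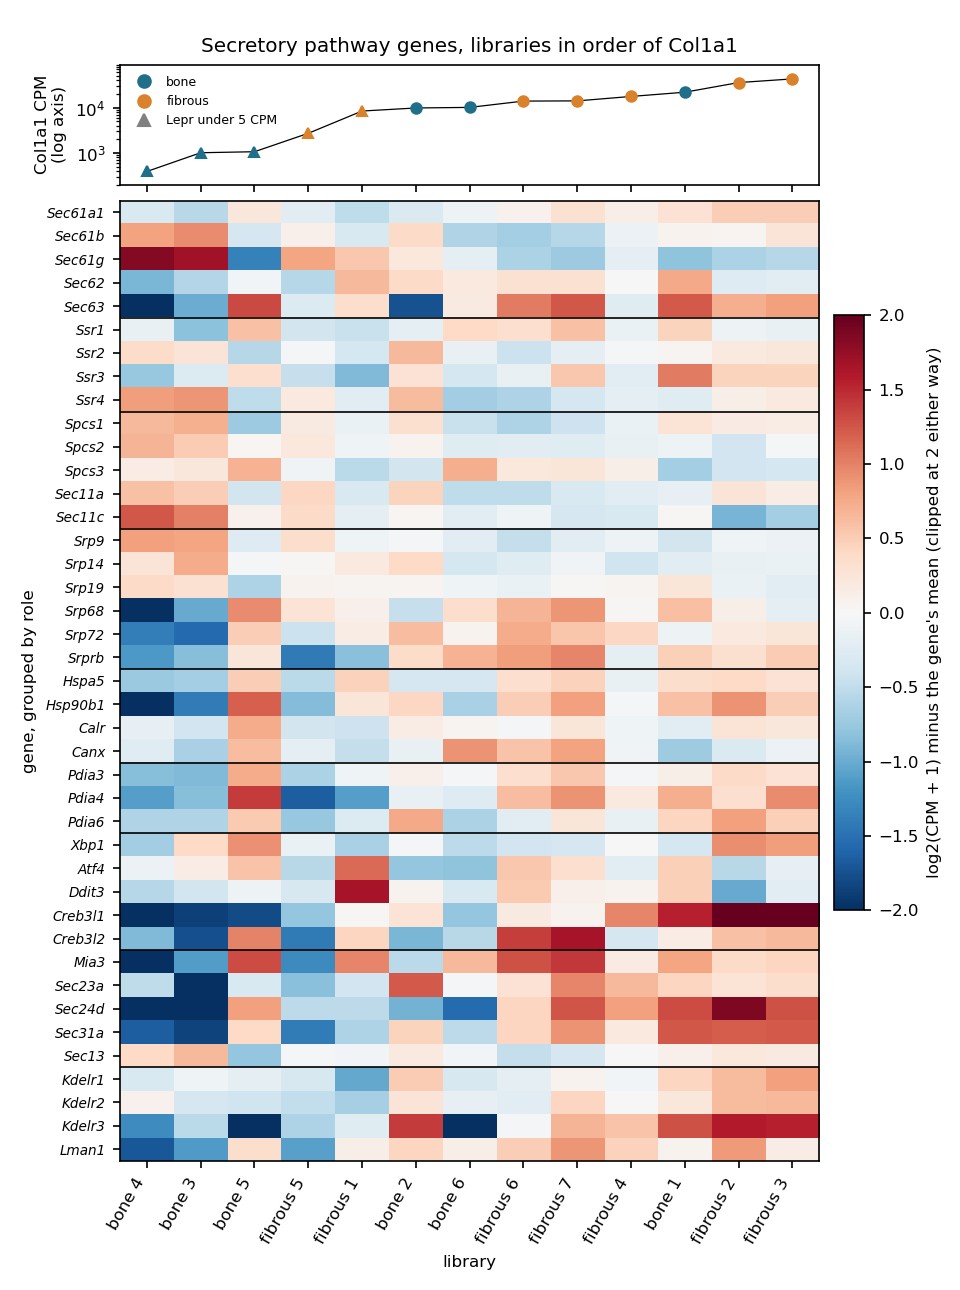
Heat map of the 41 genes, grouped by role with black lines between roles, over the 13 libraries in order of Col1a1. Colour gives log2(CPM + 1) minus the gene's mean, clipped at 2 either way, and the upper panel gives Col1a1 in CPM on a log axis (blue, bone; orange, fibrous; triangles, Lepr under 5 CPM). Creb3l1 and Sec24d run from low at the left to high at the right, Sec61g and Sec11c run the other way, and bone 5 departs from its neighbours in many genes.

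The study's named comparison, fibrous against bone, called no member, which does not show that the members were unchanged. With edgeR's quasi-likelihood test, 0 of 41 passed an adjusted p of 0.05, where 0% of all 13294 genes did (0 genes), and the smallest adjusted p was 0.873. At an unadjusted p under 0.05 there were 2 members and 636 of all genes. DESeq2 called 0 of the 41 and 169 of 12993 genes, or 1.3%; limma called 0 of the 41 and 0 genes. The groups overlapped for all 41 members, where 0.0677% of all genes had groups that did not. Fold changes are given as log2, fibrous minus bone: 24 members lay above 0 and 17 below, with a median of 0.10 beside 0.03 over all genes tested. With the trend on transcript length removed from each library, 16 members lay above 0 and 25 below, with a median of -0.16. All genes moved as well in that setting, with 4814 above 0, 8480 below and a median of -0.20. The median of the members thus lay above that of all genes in both fits.

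Of the entry machinery, all 5 signal peptidase genes and all 4 TRAP genes had negative fold changes, with medians of -0.29 and -0.17, and none passed. The channel genes (3 of 5 above 0, median 0.01) and those of the signal recognition particle and its receptor (3 of 6 above 0, median -0.00303) lay on both sides of 0. Sec11c, a catalytic subunit of signal peptidase, had the largest of these differences. It ran from 152 to 425 CPM in bone (median 186) and from 93.2 to 233 in fibrous (median 144). The log2 fold change was -0.71 (SE 0.28, unadjusted p = 0.0258, adjusted p = 0.873). The groups overlapped, and the bone libraries above the fibrous range were bone 3 and bone 4.

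Sec61b, the beta subunit of the channel, ran from 95.3 to 279 CPM in bone (median 170.3) and from 90.2 to 174 in fibrous (median 134), a log2 fold change of -0.45 (SE 0.17, unadjusted p = 0.0227). Ssr4, the delta subunit of TRAP, ran from 104 to 314 in bone (median 203) and from 110.3 to 194 in fibrous (median 147), a log2 fold change of -0.36 (SE 0.20). Srp14, which pauses translation as part of the signal recognition particle, ran from 71.9 to 155 in bone (median 101) and from 69.9 to 105 in fibrous (median 83.9), a log2 fold change of -0.28 (SE 0.18). In all 3 genes the highest library was bone 3, and the groups overlapped.

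The folding genes had small differences. Hspa5 ran from 579.97 to 1364 CPM in bone (median 771) and from 672 to 1346 in fibrous (median 1227), a log2 fold change of 0.38 (SE 0.25). Libraries with Lepr under 5 CPM lay at both ends of the range. Bone 3 and bone 4 had the lowest bone values and fibrous 5 the lowest fibrous value. Bone 5 had the highest value of all, and fibrous 1, at 1345 CPM, lay close to the highest fibrous value. Pdia3, which works with the lectin chaperones on glycoproteins, ran from 257 to 795 in bone (median 486) and from 305 to 688 in fibrous (median 578), a log2 fold change of 0.23 (SE 0.24). Its highest and its lowest library were both bone, bone 5 and bone 3.

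No transcription factor or export gene passed either. All 5 transcription factors, all 4 KDEL receptor and cargo lectin genes and 4 of the 5 genes of COPII and TANGO1 lay above 0, with medians of 0.45, 0.35 and 0.44. Creb3l1 encodes OASIS, a membrane-bound factor known to activate Col1a1 in osteoblasts. It ran from 6.62 to 110.0 CPM in bone (median 15.5) and from 21.1 to 191 in fibrous (median 42.0), a log2 fold change of 1.25 (SE 0.67, unadjusted p = 0.0881). Col1a1 itself, the gene of the major bone collagen, had a fold change of 1.36 (SE 0.90) and adjusted p of 0.873.

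Creb3l2, a relative of Creb3l1 known for its role in cartilage secretion, ran from 3.54 to 29.5 CPM in bone (median 8.39) and from 4.74 to 47.1 in fibrous (median 22.1), a log2 fold change of 0.99 (SE 0.46, unadjusted p = 0.0526). Sec24d, the COPII subunit that selects cargo, ran from 8.03 to 103 in bone (median 17.1) and from 28.3 to 153 in fibrous (median 73.2), a log2 fold change of 1.03 (SE 0.67). Mia3 ran from 0.201 to 63.2 in bone (median 28.1) and from 9.66 to 67.7 in fibrous (median 34.0), a log2 fold change of 0.65 (SE 0.70). The groups overlapped in each: the highest bone libraries, bone 1 for Sec24d and bone 5 for Creb3l2 and Mia3, lay inside the fibrous range. Xbp1, the factor activated by splicing in the unfolded protein response, ran from 113 to 347 in bone (median 163) and from 117 to 353 in fibrous (median 168), a log2 fold change of 0.08 (SE 0.35).

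**Figure D2:**
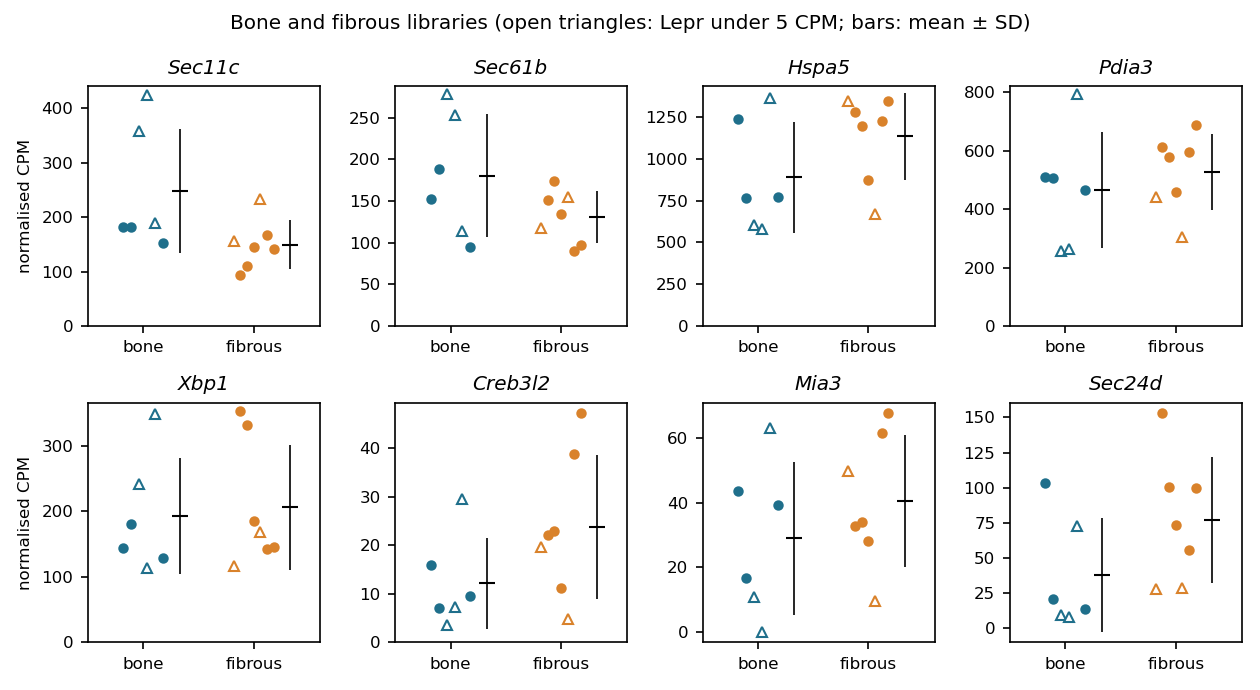
Normalised CPM of 8 genes in the 6 bone and 7 fibrous libraries, 1 point per library on a linear axis, with mean ± SD at the right of each group; open triangles mark libraries with Lepr under 5 CPM. The groups overlap in every panel, and the highest bone values of Sec11c and Sec61b are libraries with Lepr under 5 CPM.

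Within each name series the comparison again called 0 of 41, with a median log2 fold change of 0.01 in L002 (4 against 5 libraries) and 0.06 in XY9274 (2 against 2). Kdelr3, a receptor that returns chaperones to the ER, had the most unequal pair of values. Its log2 fold change was 0.19 in L002 and 2.57 in XY9274, where both bone libraries (13.1 and 17.0 CPM) lay below both fibrous libraries (70.6 and 116). Over all libraries Kdelr3 ran from 13.1 to 191 in bone (median 39.3) and from 46.4 to 219 in fibrous (median 107), a log2 fold change of 0.91 (SE 0.61). The interaction of series and group for Kdelr3 was 2.42 (unadjusted p = 0.0509, adjusted p = 1), and 0 of 41 members passed for the interaction, where 0% of all genes did (0 genes, 292 at an unadjusted p under 0.05, and 0 members at that limit). Of 91 other tested genes of the pathway, 0 passed in fibrous against bone. The smallest p-values were those of Mbtps1, the protease that activates membrane-bound factors such as Creb3l1 (0.88, SE 0.26, unadjusted p = 0.00501), and of Erp29, a lumenal folding factor (-0.35, SE 0.15, unadjusted p = 0.0347).

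The members were next set against Col1a1, the gene of the main collagen chain of bone and a major client of this pathway in matrix-forming cells. Col1a1 ranged from 389 CPM in bone 4 to 43241 in fibrous 3, or 111-fold, and within each group the range was wide. The slope on Col1a1, in log2 units per doubling of Col1a1 with name series as a term, passed the test for 9 members. Of these, 5 rose with Col1a1, where 3.75% of all genes did, and 4 fell, where 2.02% of all genes did (9 of 41 against 5.77% in either direction). The median slope was 0.11 over the members and 0.03 over all genes tested, with 27 members above 0 and 14 below. In bulk RNA, fewer cells of a type and less RNA per cell cannot be told apart.

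The number of calls depended on which libraries were used. Without the 5 libraries with Lepr under 5 CPM, which hold the lowest Col1a1 values, Col1a1 spanned 4.39-fold over 8 libraries and 0 of 41 members passed, with 0% of all genes (0 genes, 1295 at an unadjusted p under 0.05, 10 of them members). Without the 3 libraries named Lin, the count was 0 and 0.104% of all genes passed. Leaving out single libraries gave 2 to 19 members: 2 without bone 4 (1.78% of all genes), 5 without bone 3 (2.54%), 4 without fibrous 2 (2.96%) and 19 without bone 5 (18.7%). Creb3l1 and Sec11c passed in all 13 of these fits. Other tools called more of all genes: DESeq2 18 members and 21.6% of genes, limma 21 members and 23.7% of genes. In the 8 libraries the median slope of the members was 0.13, with 28 above 0, and the slopes of the 9 called members kept their sign except for Srp9. Some were as large as over all libraries, with wider errors: Sec31a 0.56 (SE 0.24), Sec61g -0.36 (SE 0.14) and Sec11c -0.32 (SE 0.15). Others were smaller: Kdelr3 0.36 (SE 0.38), Lman1 0.13 (SE 0.18), Srprb 0.15 (SE 0.15) and Spcs2 -0.05 (SE 0.10).

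Creb3l1 had the steepest slope of the members. In order of rising Col1a1 its CPM was 6.62 in bone 4, 9.34 in bone 3, 9.95 in bone 5, 21.1 in fibrous 5, 37.3 in fibrous 1, 44.8 in bone 2, 21.1 in bone 6, 42.0 in fibrous 6, 38.6 in fibrous 7, 73.5 in fibrous 4, 110.0 in bone 1, 164 in fibrous 2 and 191 in fibrous 3. The slope was 0.69 (SE 0.06, adjusted p = 3.50e-05), and in the 8 libraries with Lepr it was 1.04 (SE 0.13) without passing the test (adjusted p = 0.294, the highest over its alternatives). Within the L002 series the order of the 9 libraries by Creb3l1 was the order by Col1a1.

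Over all 13 libraries the correlation of log2 CPM was r = 0.95 (permutation p = 1e-05, the smallest that 100000 resamples can give, adjusted p = 0.00251 over 13293 genes) and Spearman's rho was 0.93 (permutation p = 1e-05, adjusted p = 0.00604). Without bone 3 and bone 4, the libraries farthest from the median Col1a1, r was 0.92. In this family 3 members passed by Pearson's r, where 3.96% of all genes did, and 5 by Spearman's rho, where 4.4% did; without bone 3 and bone 4 these counts were 1 (0.602% of all genes) and 0 (0.323%). Within L002, exact permutation gave 17 (17.8%) and 11 (9.82%). Creb3l1 shared none of its 50-base words with another annotated gene.

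Besides Creb3l1, the rising members were Sec31a, Lman1, Kdelr3 and Srprb. Sec31a, of the outer COPII coat, ran from 30.9 to 274 CPM in bone (median 116) and from 43.0 to 268 in fibrous (median 155), with a slope of 0.41 (SE 0.09, adjusted p = 0.0249). It was lowest in bone 3 (30.9), bone 4 (35.8) and fibrous 5 (43.0) and highest in bone 1 (274), fibrous 3 (268) and fibrous 2 (266). Kdelr3 had a slope of 0.48 (SE 0.10, adjusted p = 0.0149). Its 2 lowest values were those of the XY9274 bone libraries, and its highest, 219 and 214, those of fibrous 2 and fibrous 3.

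Lman1, the lectin ERGIC-53 that carries glycoproteins out of the ER, had a slope of 0.29 (SE 0.06, adjusted p = 0.0189). It lay between 39.2 and 60.1 CPM in the 3 Lin-named libraries and between 136 and 238 in the others. Srprb, which anchors the receptor of the signal recognition particle in the ER membrane, ran from 20.9 to 76.9 in bone (median 58.5) and from 17.1 to 94.1 in fibrous (median 59.1), with a slope of 0.25 (SE 0.06, adjusted p = 0.0234). The annotated gene Gm20425 overlaps Srprb on the same strand and shares 19.8% of its 50-base words, so its counts are uncertain.

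Not all export genes passed. Sec24d had a slope of 0.47 (SE 0.14, adjusted p = 0.0665), Mia3 0.41 (SE 0.18, adjusted p = 0.186) and Sec23a, of the inner COPII coat, 0.26 (SE 0.09, adjusted p = 0.119). Sec13, the partner of Sec31a in the outer coat, had a slope of -0.02 (SE 0.04). The ratio of Sec31a to Sec13 in CPM ran from 0.0741 in bone 3 to 1.02 in fibrous 7. The ratio of Sec24d to Sec13 ran from 0.0219 in bone 3 to 0.495 in fibrous 2.

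**Figure D3:**
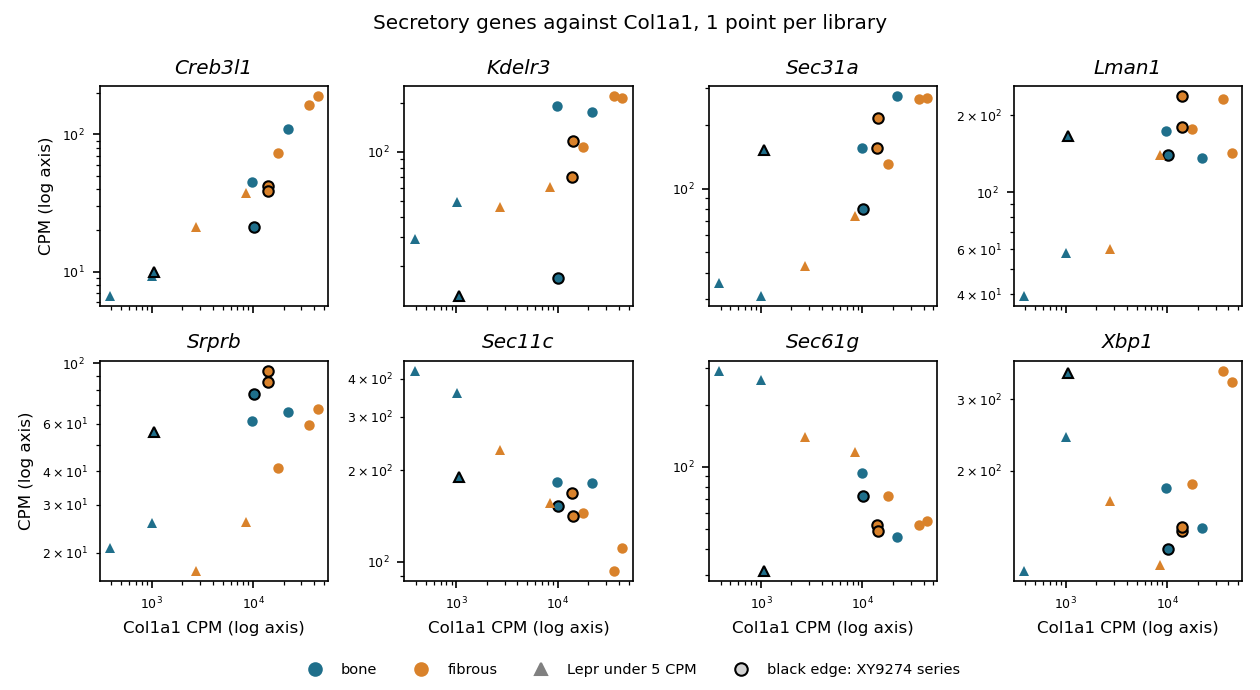
CPM of 8 genes against CPM of Col1a1, both on log axes, 1 point per library (blue, bone; orange, fibrous; triangles, Lepr under 5 CPM; black edges, XY9274 series). Creb3l1 rises along the range, Sec31a and Lman1 are lowest in bone 3, bone 4 and fibrous 5, Sec11c and Sec61g fall, and Xbp1 has a slope of 0.03.

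The members that fell with rising Col1a1 were subunits of the entry machinery. Sec11c had a slope of -0.26 (SE 0.04, adjusted p = 0.00280), from 425 CPM in bone 4 to 93.2 in fibrous 2. Sec61g, the gamma subunit of the channel, ran from 31.3 to 293 in bone (median 82.8) and from 48.8 to 140.2 in fibrous (median 54.4), with a slope of -0.33 (SE 0.07, adjusted p = 0.0228). It was highest in bone 4 and bone 3, at 293 and 263, while bone 5, with as little Col1a1 as bone 3, had the lowest value.

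Srp9, the partner of Srp14, had a slope of -0.14 (SE 0.03, adjusted p = 0.0241) and Spcs2, an accessory subunit of signal peptidase, -0.12 (SE 0.03, adjusted p = 0.0155). Srp9 had a slope of 0.01 in the 8 libraries with Lepr. Other genes share 17.4% of the 50-base words of Srp9 and 14.8% of those of Sec61g, so counts of both are uncertain. The ratio of Sec61g to Sec61a1, the pore of the same channel, ran from 0.106 in bone 5 to 1.54 in bone 3, and that of Sec11c to its homologue Sec11a from 0.628 in fibrous 2 to 2.27 in bone 4.

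The chaperones, isomerases and stress factors did not pass. Hsp90b1 (GRP94), which folds a restricted set of clients, ran from 42.1 to 460 CPM in bone (median 196) and from 109 to 371 in fibrous (median 281), with a slope of 0.28 (SE 0.11, adjusted p = 0.135). Hspa5 had a slope of 0.13 (SE 0.05, adjusted p = 0.162) and Pdia3 0.13 (SE 0.05, adjusted p = 0.116). Xbp1 had a slope of 0.03 (SE 0.08), Atf4, which drives amino acid supply under stress, -0.02 (SE 0.08) and Ddit3 (CHOP), its target in prolonged stress, 0.09 (SE 0.12). Within L002 alone, 16 of 41 passed, where 16.4% of all genes did; 12 rose (8.09% of all genes) and 4 fell (8.34%), and all 3 isomerases, Hspa5 and Hsp90b1 were among the 12.

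None of the remaining members of the entry machinery passed for the slope with edgeR. Sec61a1, the pore of the channel, ran from 171 CPM in bone 3 to 356 in fibrous 2, with a slope of 0.11 (SE 0.04, adjusted p = 0.132). Sec62, which with Sec63 serves proteins that enter after their synthesis, ran from 42.5 in bone 4 to 137 in bone 1, with a slope of 0.15 (SE 0.06). Sec63 ran from 1.10 in bone 4 to 65.8 in bone 5, the widest span of the members after Mia3, with a slope of 0.36 (SE 0.15, adjusted p = 0.175). The channel subunits thus spread in both directions, from -0.33 for Sec61g to 0.36 for Sec63.

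The 4 TRAP genes, whose complex sits beside the channel, had slopes from -0.11 (Ssr4) to 0.14 (Ssr3). The 5 signal peptidase genes all had slopes below 0, with a median of -0.09, and Spcs1, Spcs3 and Sec11a did not pass. Within the signal recognition particle, Srp9 and Srp14 had slopes of -0.14 and -0.10, Srp19 of -0.03 (SE 0.03), and Srp68 and Srp72 of 0.18 and 0.23. The difference between these subunits was not tested. Srp68 was 12.04 CPM in bone 4 and 31.4 in bone 3 and lay between 46.2 and 125 in the other libraries.

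Among the folding genes Pdia4 ran from 30.3 CPM in fibrous 5 to 260.2 in bone 5, with a slope of 0.20 (SE 0.09), and Pdia6 from 168 in fibrous 5 to 505 in fibrous 2, with a slope of 0.13 (SE 0.07). Calr and Canx had slopes of 0.02 each. Of the KDEL receptors, Kdelr1 ran from 27.3 in fibrous 1 to 101 in fibrous 3 and Kdelr2 from 85.6 to 215 in the same libraries, with slopes of 0.12 (SE 0.06) and 0.11 (SE 0.05). The ratio of Kdelr3 to Kdelr2 ran from 0.128 in bone 5 to 1.17 in bone 2. Atf4 and Ddit3 were both highest in fibrous 1, at 350.1 and 61.4 CPM, where the next highest values were 238 (bone 5) and 27.8 (fibrous 6).

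**Figure D4:**
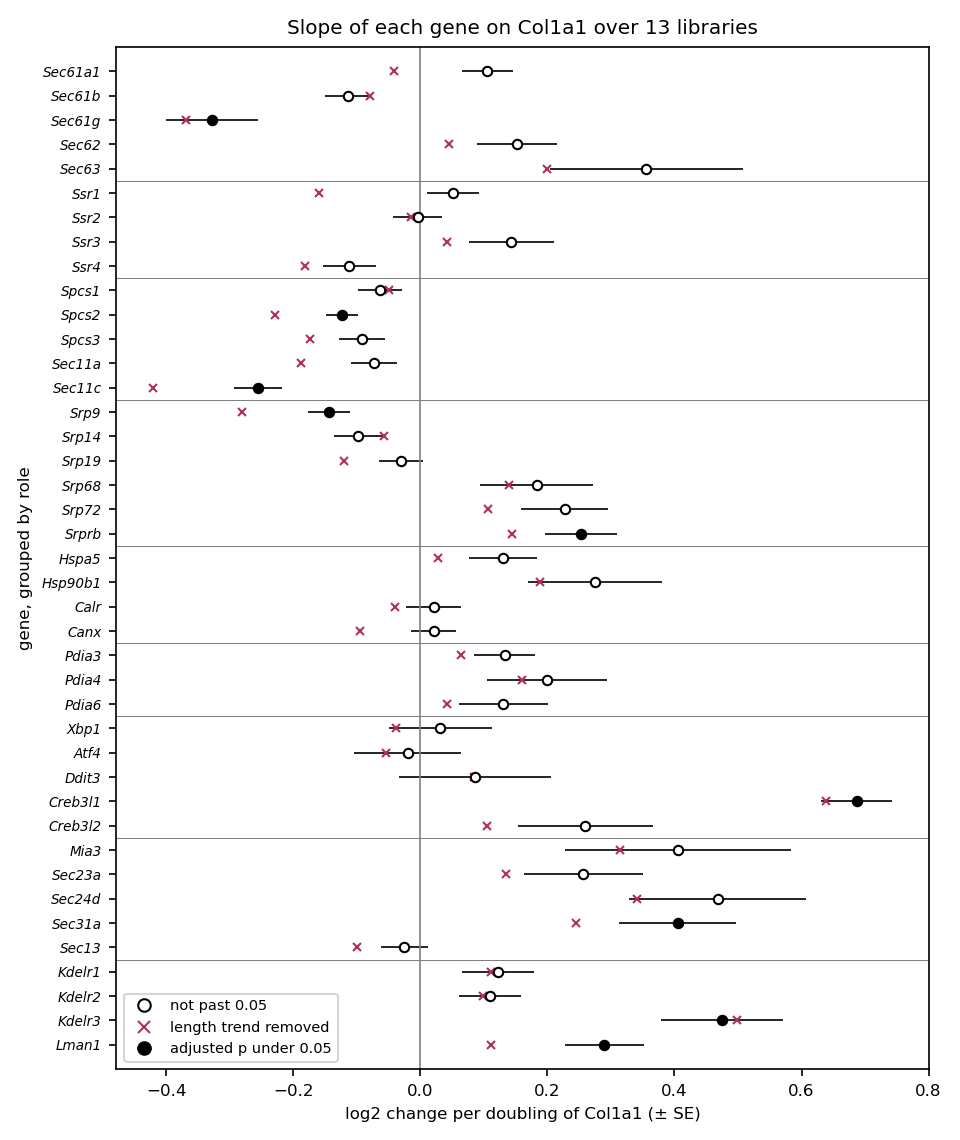
Slope of each of the 41 genes on Col1a1, in log2 change per doubling (x axis), with SE as bars; filled points passed an adjusted p of 0.05, open points did not, and red crosses give the slope after the trend on transcript length was removed from each library. The 5 filled points above 0 are Srprb, Creb3l1, Sec31a, Kdelr3 and Lman1, the 4 below are Sec61g, Spcs2, Sec11c and Srp9, and the crosses lie to the left of most points.

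Summed markers of several cell types moved with Col1a1. The summed CPM of the 6 marrow stroma markers, Lepr among them, rose with it. This sum ran from 9.93 to 1198 in bone and from 18.3 to 9139 in fibrous, with r = 0.91 (permutation p = 1e-05, adjusted p = 8.00e-05 over 8 lists, rho = 0.88 with permutation p = 9.00e-05). Cxcl12 made up 7965 of the 9139 CPM in fibrous 2 and 627 of 712 in bone 1. Not every marker followed Col1a1: bone 1, with 21965 CPM of Col1a1, had 0.118 CPM of Kitl and 0 of Ebf3. The 5 chondrocyte markers ran from 297 to 35955 in bone and from 1649 to 43568 in fibrous, with r = 0.66 (permutation p = 0.0144, adjusted p = 0.0490, rho = 0.65 with permutation p = 0.0202). Without bone 3 and bone 4 these r were 0.87 and 0.40. The part of stromal and cartilage cells in the slopes was not tested.

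Neutrophil and pan-leukocyte markers were higher where Col1a1 was lower, while the relation of erythroid markers to Col1a1 depended on the libraries used. The summed CPM of the 7 neutrophil markers ran from 1473 to 89186 in bone and from 623 to 22205 in fibrous, and its correlation with Col1a1 was r = -0.62 (permutation p = 0.0219, adjusted p = 0.0490 over 8 lists, rho = -0.66 with permutation p = 0.0179). For the 4 pan-leukocyte markers r was -0.62 (permutation p = 0.0245, adjusted p = 0.0490, rho = -0.64 with permutation p = 0.0229), and of these Ptprc (CD45) was at 0 in bone 4. The 7 erythroid markers ran from 1819 to 593546 in bone and from 8544 to 235544 in fibrous, with r = -0.31 (permutation p = 0.294, rho = -0.52 with permutation p = 0.0707) over all libraries and -0.95 within L002. Leaving out bone 3 and bone 4, r was -0.59 for neutrophil, -0.67 for pan-leukocyte and 0.26 for erythroid markers.

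With a score of the leukocyte markers as a further term, 10 of 41 passed, where 6.13% of all genes did: 6 rose (4.25% of all genes) and 4 fell (1.88%). The gene added was Srp72, which holds the particle's RNA with Srp68 (0.27, adjusted p = 0.0441). Without the 5 libraries low in Lepr this count was also 0 (0% of all genes). Leaving out bone 4, bone 5, fibrous 2, fibrous 3 and fibrous 4 in turn, it was 1, 17, 3, 5 and 5 (0.975%, 19.0%, 2.27%, 3.71% and 3.85% of all genes). With both leukocyte and erythroid scores, 5 passed, where 2.7% of all genes did. Creb3l1, Sec31a and Lman1 rose (1.98% of all genes) and Sec11c and Spcs2 fell (0.722%). With tissue group as a term, 4 passed, where 2.27% did.

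Transcript length also moved with the slopes. Across the 41 members, Spearman's rho between slope and exon length was 0.29, and across all genes tested, which share the same libraries, it was 0.34. With the trend on length removed from each library, 3 members rose and 8 fell, where 3.72% and 10.6% of all genes did, so that the split turned towards falling genes. That step moved the median slope of all genes to -0.04 and that of the members to 0.04. Creb3l1, Kdelr3 and Sec31a were the 3 that rose. Lman1 had a slope of 0.11 and Srprb 0.14 in that fit, neither past the threshold.

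Bone 5 stood apart from the other libraries low in Col1a1. It held 1062 CPM of Col1a1, close to the 1009 of bone 3, but had 1364 CPM of Hspa5 against 605, 460 of Hsp90b1 against 74.7, 260.2 of Pdia4 against 53.8, and 63.2 of Mia3 against 10.9. Creb3l1 was alike in both, at 9.95 and 9.34. Bone 5 belongs to the XY9274 series, whereas bone 3 belongs to L002 and is Lin-named. The haemoglobin share was 27.9% for bone 3 beside 0.128% for bone 5. Within XY9274, fibrous 6 and fibrous 7 had 1227 and 1346 CPM of Hspa5 and 61.5 and 67.7 of Mia3. Bone 6, of the same series, had less of both, 773 and 39.5. Hsp90b1 and Pdia4 were highest in bone 5 among all libraries. Bone 5 also had the highest sum of the 9 plasma and B cell markers, 17927 CPM beside 124 to 1675 in the other 12 libraries, with none of the markers at 0. The sum was mostly Ighm (8744), Igkc (7035) and Jchain (1842), all highest in bone 5, as were Tnfrsf17 (2.29) and Derl3 (8.90). The other markers were not: Mzb1 was 5.57 against 71.1 in bone 3, Sdc1 40.8 against 241 in fibrous 2, and Cd79a (165) and Pou2af1 (83.1) lay below fibrous 6 (216 and 101). Bone 5 had the highest neutrophil sum, 89186, as well. The part of these cells, of name series or of erythroid content in its secretory gene levels was not tested.

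Of the 91 other tested genes of the pathway, 7 passed for the slope on Col1a1, where 5.77% of all genes did, and all 7 rose. The smallest p-values were those of Srpr, the receptor subunit that Srprb anchors (0.23, SE 0.05, adjusted p = 0.0140), and Copg1, of the COPI coat that returns KDEL receptors to the ER (0.25, SE 0.06, adjusted p = 0.0249). With the leukocyte score 9 passed, where 6.13% of all genes did, all rising, led by Srpr (0.27, adjusted p = 0.00841) and the disulfide isomerase Pdia5 (0.86, adjusted p = 0.0163). The median slope of the 91 genes was 0.09.

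The promoter elements shown above divided the slopes as follows, as a description over few genes. The 5 members with the ER stress element had a median slope of 0.13 and the other members with a promoter entry had 0.12. The 5 members with TGACGTG had a median slope of 0.41 and the others had 0.05. Over all tested genes with a promoter entry, 4.0% of the 325 with TGACGTG rose past the threshold beside 3.73% of those without it, with median slopes of 0.07 and 0.05.

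Some members differed between the name series. XY9274 differed from L002 for 3 of 41 members, where 2.16% of all genes did; 1 was higher (1.89% of all genes) and 2 were lower (0.271%). Canx, the membrane-bound lectin chaperone, was higher in XY9274. Its CPM was 686, 840, 669 and 786 in the XY9274 libraries (bone 5, bone 6, fibrous 6 and fibrous 7) and ran from 273 to 429 in the 9 L002 libraries (median 379), a log2 difference of 1.05 (SE 0.16, adjusted p = 0.00658) with no overlap.

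Spcs1 and Sec61b were lower in XY9274. Spcs1 was 125, 152, 136 and 157 CPM there and ran from 191 to 344 in L002 (median 237), a difference of -0.81 (SE 0.17, adjusted p = 0.0307). Sec61b was 114, 95.3, 90.2 and 97.3 there and ran from 117 to 279 in L002 (median 155), a difference of -0.84 (SE 0.20, adjusted p = 0.0470). The series did not overlap for 5 members, Sec61b, Ssr4, Spcs1, Sec11a and Canx, where 6.5% of all genes did not. Other genes share 10.6% of the 50-base words of Spcs1 and 17.4% of those of Sec61b, so these counts are uncertain.

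These calls were also lost in other settings. None of the 3 passed without the 5 libraries low in Lepr (0.219% of all genes) or with the trend on length removed (0.429%). Spearman's rho between the series difference and exon length was 0.50 across the members and 0.42 across all genes tested. Leaving out single libraries gave 1 to 5 calls, 5 without bone 1 (3.4% of all genes) and 1 without bone 5, bone 6, fibrous 2, fibrous 3, fibrous 5 or fibrous 6 (between 0.669% and 1.74% of all genes), and Canx passed in all 13 of these fits. The labels do not say what distinguishes the series beyond their names. Among the 91 other genes, 2 were called, a share near the 2.16% of all genes, both higher in XY9274: the COPII subunit Sec24c (1.29, adjusted p = 0.0238) and Uggt1, which senses unfolded glycoproteins (2.35, adjusted p = 0.0431).

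**Figure D5:**
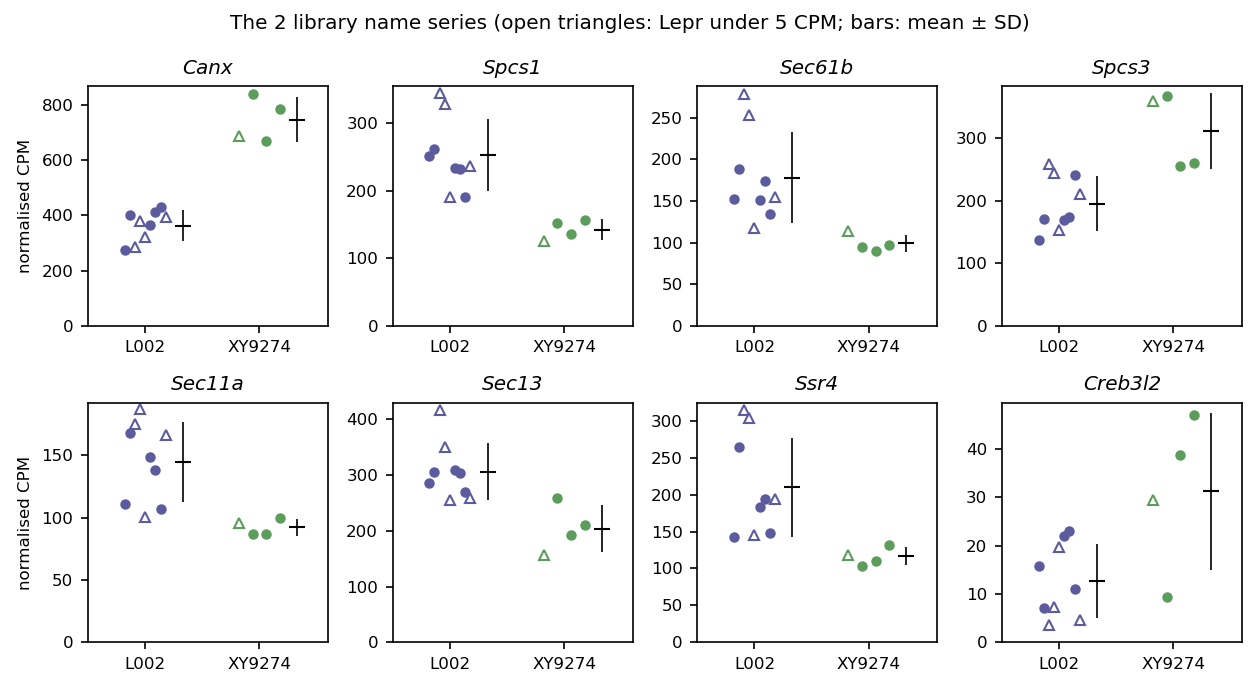
Normalised CPM of 8 genes in the 9 libraries of the L002 series and the 4 of the XY9274 series, 1 point per library on a linear axis, with mean ± SD at the right; open triangles mark libraries with Lepr under 5 CPM. All 4 XY9274 libraries lie above L002 for Canx and below it for Spcs1, Sec61b, Sec11a and Ssr4, while Spcs3, Sec13 and Creb3l2 overlap.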

How the data were processed

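The authors deposited raw counts per gene for 13 polyA RNA libraries. The submitters' processing notes name edgeR, mm10 and hg38, with aligner, counter, annotation and strand use not given in the sources used here. Genes were tested with edgeR 4.0.16 (R 4.3.3; filterByExpr, TMM, robust quasi-likelihood F test, Benjamini-Hochberg over 13294 genes) with name series as a term, in scripts tested on simulated data. The simulated data varied less between libraries than these data, so that test checked the code and does not measure power here. CPM are scaled by TMM. Fits without chosen libraries, with other tools (DESeq2 1.42.0, limma 3.58.1) and other scalings were alternatives. Gene lists and members were chosen with earlier results of these data known. All 41 members are accounted for. Library values are given for the member of each role with the smallest p against the group and on Col1a1, and for Hspa5, Xbp1, Creb3l1, Sec24d, Mia3 and Kdelr3. Other pathway genes were named by smallest p, 2 per comparison; other members named were chosen after their values were seen. Words of 50 bases and exon overlaps came from GENCODE M21 transcripts: 7 members shared over 10% of their words with other genes, and 16 overlapped another gene's exons, 14 of them on the opposite strand. No p was computed over the member list.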

Additional observations from a re-analysis of the deposited data

Results flagged for a closer look

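Among 84 groups of libraries examined, 2 held a library far enough from the others to pass Dixon's 95% limit, and chance alone gives about 1 in 20. Mia3 in bone 4 was 0.201 CPM, with the next bone library, bone 3, at 10.9: the gap was 0.679 of the group's range. That value is near 0, in the library with the fewest counts. Lman1 in fibrous 5 was 60.1 CPM, with the next fibrous library, fibrous 1, at 139.8: the gap was 0.613 of the range. Both libraries carry Lin in their name and lie under 5 CPM of Lepr. No member went in opposite directions, without overlap, in the 2 name series.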

How the results depend on the processing

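No paired analysis was done because the labels do not link any bone library to a fibrous library. The replicate numbers used here follow the order of the samples. The identifiers shared by bone 2 and bone 4 and by fibrous 2 and fibrous 5 lie within groups. The digit in the names of bone 2 and bone 4 also ends the name of fibrous 6, from the other name series. The labels do not say if that digit has the same meaning in both series. No setting, planned or added after seeing the data, called a member in fibrous against bone. For the slope on Col1a1, the main fit called 9 members (5.77% of all genes). DESeq2 called 18 (21.6% of all genes), limma 21 (23.7%) and L002 alone 16 (16.4%). A fit without the name series term called 5 (3.58%), leukocyte and erythroid scores 5 (2.7%) and tissue group as a term 4 (2.27%). Fits without the Lin-named libraries or without those low in Lepr called 0 (0.104% and 0%). Leaving out single libraries gave from 2 (1.78%, without bone 4) to 19 (18.7%, without bone 5). With the leukocyte score the main fit called 10 members (6.13% of all genes), and the fit without the libraries low in Lepr 0 (0%). Single libraries left out gave from 1 (0.975%, without bone 4) to 17 (19.0%, without bone 5). For XY9274 against L002, the main fit called 3 members (2.16% of all genes) and DESeq2 9 (15.9%). Removal of the length trend gave 0 (0.429%) and the fit without the libraries low in Lepr 0 (0.219%). Single libraries left out gave 1 to 5 (between 0.669% and 3.4% of all genes). Correlation with Col1a1 by Pearson's r called 3 members (3.96% of all genes), 1 without bone 3 and bone 4 (0.602%) and 17 within L002 (17.8%). Single values changed sign as follows. In fibrous against bone, XY9274 alone gave Ssr4 0.0552, Pdia3 -0.0441 and Xbp1 -0.80. With the length trend removed Xbp1 was -0.16, where the median of all genes was -0.20. With single libraries left out Xbp1 lay between -0.12 and 0.37. For the slope, Srp9 was 0.0144 without the libraries low in Lepr (0.0237 with the leukocyte score), Mia3 -0.00999 and Xbp1 -0.0776 without the Lin-named libraries. The slope of Xbp1 was -0.0385 with the length trend removed, where the median slope of all genes was -0.04. With single libraries left out the slope of Xbp1 lay between -0.0457 and 0.13. The cause of these changes was not tested. Fits without libraries tested fewer samples. The length setting was chosen after seeing the data.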
